A study of Mus musculus with 102 samples.

Results

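The comparison described here set spinal microglia of ABC-imKO mice (KO) against those of wild type mice (WT), all of them given cisplatin and then AIBP. Its members were the 5 samples with these labels, KO 7, 8 and 9 and WT 7 and 9, out of 17 samples in the series, chosen by genotype and treatment labels alone. Genotype KO was Abca1fl/fl Abcg1fl/fl Cx3cr1-CreERT2, which carries floxed alleles of the cholesterol exporters ABCA1 and ABCG1 and an inducible Cre driven from Cx3cr1, a gene that microglia and other myeloid cells express. Mice of both genotypes had cisplatin in the peritoneum on days 1 and 3 and AIBP into the spinal canal on day 7. The series also holds 3 naive and 3 cisplatin plus saline samples of each genotype, used below only to place the AIBP samples. Resident microglia of the lumbar cord were sorted by FACS into lysis buffer, and cDNA was made with oligo(dT) primers and amplified by PCR. How Cre was induced, the age and sex of the mice, the time of collection and whether a numbered sample was 1 mouse or a pool are not given in the sources used here, so each p-value reflects only how far these samples spread, which may in part be technical.

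Cisplatin is a platinum drug that causes a painful neuropathy. AIBP, encoded by Naxe, is a protein that binds apolipoprotein A-I and speeds the removal of cholesterol from cells, and ABCA1 and ABCG1 move that cholesterol out across the plasma membrane. Microglia are the resident macrophages of the spinal cord: at rest they express a set of homeostatic genes (P2ry12, Tmem119 and others), and when stimulated they switch on early response transcription factors, cytokines and chemokines within a short time.

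The 5 samples held 45072898 and 64237697 counts (WT) and 76643616, 69373041 and 75907063 counts (KO), so every KO sample was deeper than both WT samples. Levels are given in CPM, a gene's counts scaled to the same total in every sample. Differences are log2 fold changes, KO minus WT, ± SE from an edgeR quasi-likelihood fit over all 17 samples. The 2 WT samples resembled each other (Pearson r = 0.954 across 8570 genes, a description of these samples) more than the 3 KO samples did (0.883 to 0.923), and KO 9 lay closer to both WT samples (0.941 and 0.942) than to KO 7 or KO 8. Markers of microglia were abundant in all 5 samples, with Tmem119 at 2530 to 4580 CPM.

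No gene passed the adjusted threshold in this comparison. With edgeR, 0 of 20461 genes tested (0%) had an adjusted p under 0.05, and the smallest adjusted p was 0.185, for Cd72. The unadjusted p was under 0.05 for 612 genes higher in KO (2.99%) and 687 lower in KO (3.36%). In every KO sample 2205 genes (10.8%) stood higher than in both WT samples, while 2332 (11.4%) stood lower. Of the 10 ways to split 5 samples into 3 and 2, 1 puts every KO sample highest and 1 lowest. Each of these 2 shares would thus be near 1 in 10 without any genotype difference. DESeq2 called 127 genes higher (0.621%) and 68 lower (0.332%), of which 85 had no count in any sample of 1 genotype, and 143 of its 195 calls had an unadjusted edgeR p under 0.05. A limma-voom fit called 12 genes, Cd72, Cd180 and Abhd12 among them. Since no gene passed in the edgeR fit, the groups below are described by levels, by counts at the unadjusted threshold beside the share of all genes that met it, and by the DESeq2 calls. The gene lists were chosen with earlier results of these data known. Precision followed abundance, since the median SE was 0.24 among genes at 100 CPM or more and 2.43 among those under 1 CPM.

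The exporter genes themselves did not separate the genotypes. Abca1 (chromosome 4, 53030787 to 53159895, GRCm38) stood at 41.1 and 45.6 CPM in WT against 65.7, 59.6 and 32.6 in KO, a difference of 0.28 ± 0.31 (edgeR adjusted p = 0.900). Abcg1 (chromosome 17, 31057675 to 31117988) stood at 36.2 and 63.1 CPM in WT against 44.6, 25.6 and 59.0 in KO, a difference of -0.21 ± 0.36 (edgeR adjusted p = 0.954). The groups overlapped for both genes. Counts over a whole gene do not measure the floxed exons alone, so these values check neither deletion nor labels. Naxe, the gene of AIBP itself, stood at 207 and 208 CPM in WT against 135, 119 and 156 in KO (-0.61 ± 0.18, edgeR unadjusted p = 0.00498, adjusted p = 0.732).

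Among genes at 10 CPM or more, the smallest p belonged to 2 surface receptors known from B cells and myeloid cells. Cd72, an inhibitory lectin receptor (chromosome 4, 43446462 to 43454628), stood at 147 and 204 CPM in WT against 16.2, 34.1 and 19 in KO. Every KO sample was far below both WT samples, and the difference was -2.93 ± 0.44 (edgeR adjusted p = 0.185, DESeq2 adjusted p = 4.49e-08). Single technical libraries of KO ran from 0.201 to 87.5 CPM for this gene and those of WT from 138 to 219. Of the B cell markers, Ighm was at 919 and 894 CPM in WT against 565, 429 and 722 in KO and Cd79b also stood lower in KO, while the defining marker Cd79a was at or near 0 in all 5 samples. Their part in the difference was not tested. In naive mice Cd72 was low in both genotypes, at 19 to 25.3 CPM in WT against 21.3 to 31.1 in KO, whereas after cisplatin plus saline it stood at 96.7, 211 and 119 CPM in WT against 10.9, 23.3 and 33.4 in KO. Thus the KO samples stayed between 10.9 and 34.1 CPM in all 3 conditions. Cd180, a Toll-like receptor homologue (chromosome 13, 102693558 to 102739629), stood at 142 and 152 CPM in WT against 65.1, 64.6 and 70.4 in KO, with little spread within either group (-1.14 ± 0.19, edgeR adjusted p = 0.241, DESeq2 adjusted p = 1.91e-06). It was lower in KO in the other conditions too. After saline it stood at 102 to 115 CPM in WT against 55.1 to 67.7 in KO (-0.83 ± 0.17). In naive mice it stood at 170 to 201 against 85.6 to 140 (-0.69 ± 0.17). With naive and saline samples pooled, its genotype difference was called (edgeR adjusted p = 0.0451).

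**Figure D1:**
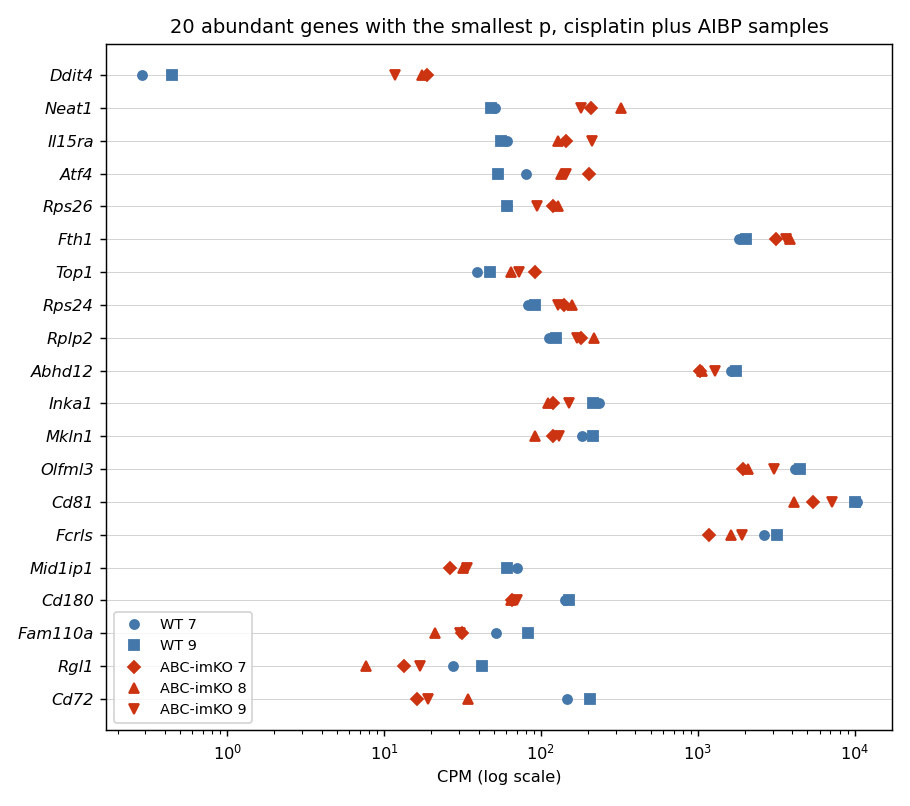
CPM on a log axis in each of the 2 WT and 3 KO samples given cisplatin and AIBP, for the 20 genes of at least 10 CPM with the smallest p; points are samples. For each of the 20 genes the red KO points lie wholly to 1 side of the blue WT points, as the choice by p favours, from Ddit4 (0.287 and 0.443 in WT, 11.7 to 18.7 in KO) to Cd72.

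Other receptors and membrane proteins of this set stood apart in the same samples. Il15ra, the interleukin-15 receptor alpha chain, was at 61.1 and 55.5 CPM in WT against 144, 129 and 212 in KO (1.47 ± 0.28, edgeR adjusted p = 0.460, DESeq2 adjusted p = 0.000113). Cd81, a tetraspanin, was at 10300 and 9990 CPM in WT against 5390, 4090 and 7160 in KO (-0.87 ± 0.21, DESeq2 adjusted p = 0.0124). Abhd12, a lipase that acts on lysophosphatidylserine, was at 1630 and 1750 CPM in WT against 1040, 1060 and 1280 in KO (-0.59 ± 0.13, DESeq2 adjusted p = 0.000568). Higher in KO were also Fth1, the ferritin heavy chain that stores iron, at 1830 and 2020 CPM against 3140, 3890 and 3670, and Neat1, the long noncoding RNA that builds nuclear paraspeckles, at 50.9 and 48.1 against 209, 326 and 179.

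Most homeostatic genes of microglia stood lower in KO. Of 18 tested, 8 were lower at an unadjusted p under 0.05 (3.36% of all genes were) and 0 higher (2.99%). In every KO sample 12 stood below both WT samples (11.4% of all genes did). The median difference was -0.49 against 0.02 over all genes. DESeq2 called Fcrls and Olfml3 lower. Fcrls, an Fc receptor-like molecule, stood at 2650 and 3180 CPM in WT against 1170, 1620 and 1900 in KO (-0.90 ± 0.19, DESeq2 adjusted p = 0.00293). Olfml3, a secreted matrix protein, stood at 4140 and 4490 CPM in WT against 1930, 2100 and 3050 in KO (-0.87 ± 0.21, DESeq2 adjusted p = 0.0169). Tmem119, a membrane protein that marks resident microglia, stood at 3980 and 4580 CPM in WT against 2790, 2530 and 3360 in KO, lower without passing the adjusted threshold. P2ry12, the ADP receptor, was at 2100 and 2510 CPM in WT against 1860, 754 and 1730 in KO, where KO 8 alone was far down. Not all of the list was lower: Sall1, a transcription factor of microglial identity, was at 159 and 174 CPM in WT against 302, 167 and 156 in KO. Across left-out samples the count at the unadjusted threshold ran from 3 (without WT 9) to 10, was 5 without KO 8, and the median ran from -0.64 to -0.32. After saline 9 of the 18 were lower in KO at the unadjusted threshold (5.13% of all genes were) and 0 higher (median -0.52). In naive mice 1 was lower and 1 higher (median -0.12). Tested against saline, the genotype difference was higher after AIBP for 2 of 18 (3.45% of all genes) and lower for 0 (median 0.07). In bulk RNA, fewer microglia in a sample and less RNA per microglial cell cannot be told apart.

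Lysosomal genes also stood lower more often than higher, by less. Of 26 tested, 19 had a negative log2 fold change (9541 of 20461 over all genes). At the unadjusted threshold 6 were lower (3.36% of all genes were) and 1 higher (2.99%), with a median of -0.16. With a KO sample left out, 4 to 8 were lower. Ctsb, the protease cathepsin B, was at 6390 and 6120 CPM in WT against 3370, 3250 and 4370 in KO (-0.77 ± 0.24), whereas Psap, the precursor of the saposins and the member that was higher at that threshold, was at 535 and 483 in WT against 1100, 1360 and 843 in KO (1.11 ± 0.36). Of 23 genes of disease-associated microglia 5 were lower (3.36% of all genes were) and 2 higher (2.99%), with a median of -0.05. Among them Lpl, lipoprotein lipase, was at 416 and 315 CPM in WT against 114, 189 and 205 in KO. Axl, a receptor for apoptotic cells, was at 80.4 and 42.1 CPM in WT against 107, 141 and 83.0 in KO. Proliferation genes had a low median (-0.69), and 12 of 22 stood lower in every KO sample (11.4% of all genes did). However, only 2 met the unadjusted threshold, both lower in KO (3.36% of all genes were). These were Mcm3, of the replication helicase, at 455 and 472 CPM in WT against 203, 276 and 377 in KO, and Stmn1. After saline 6 of 22 were lower at that threshold (5.13% of all genes were) and 0 higher (median -0.87). Tested against saline, the genotype difference after AIBP was higher for 0 and lower for 0 (median 0.15).

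Cytosolic ribosomal protein genes stood higher in KO by a small amount. All 81 tested had a positive log2 fold change, and the median was 0.52. At an unadjusted p under 0.05, 49 were higher (2.99% of all genes were) and 0 lower (3.36%). In every KO sample 59 stood higher (10.8% of all genes did). DESeq2 called 4 of them, Rps26, Rps24, Rplp2 and Rpl39. Rps26 stood at 61.2 and 60.9 CPM in WT against 120, 128 and 93.7 in KO (0.90 ± 0.18, DESeq2 adjusted p = 0.000278). Rplp2, of the ribosomal stalk, stood at 113 and 124 CPM in WT against 179, 219 and 171 in KO (0.68 ± 0.16, DESeq2 adjusted p = 0.00837). Summed over the list, the samples were at 12900 and 12700 CPM in WT and between 14500 and 20700 in KO, and the median difference from the WT mean was 0.35, 0.73 and 0.48 in KO 7, 8 and 9. After saline the same genes had a median difference of 0.28, with 16 of 81 higher at the unadjusted threshold (3.85% of all genes were). In naive mice the median was 0.33 with 23 of 81 higher (3.52% of all genes were). The difference after AIBP was larger than the naive one at that threshold for 1 of 81 (2.73% of all genes). It was larger than the saline one for 3 of 81 (3.45% of all genes). The count after AIBP was 23 without KO 8, 27 without WT 7 and 18 without WT 9, and the median stayed between 0.40 and 0.60 whichever sample was left out. Several of these genes have processed copies elsewhere in the genome, and how the counting treated reads shared with them is not given in the sources used here.

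**Figure D2:**
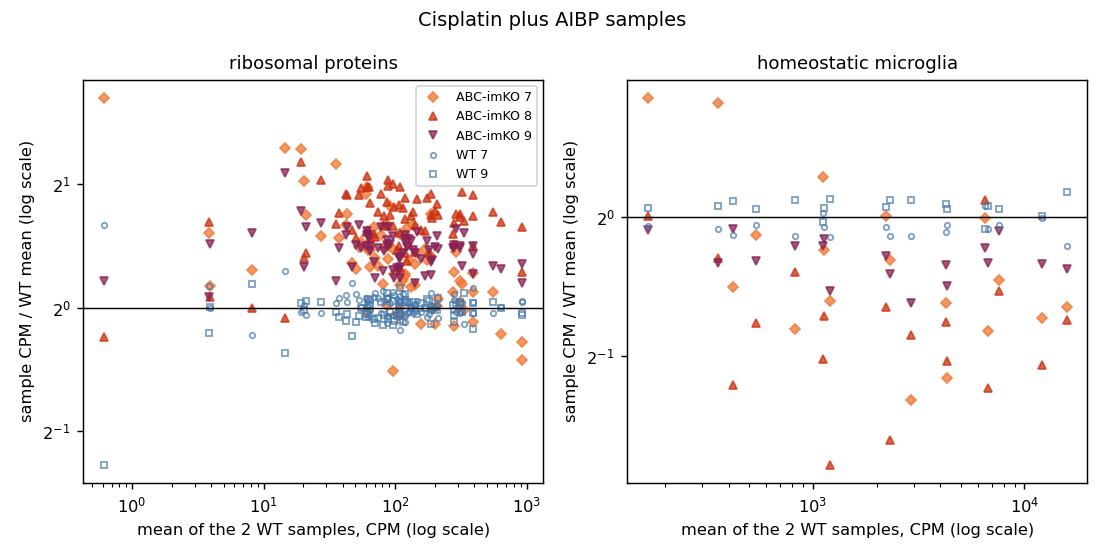
Each member's level in a sample divided by its mean in the 2 WT samples (log axis), against that WT mean in CPM (log axis), for ribosomal protein genes (left) and homeostatic genes (right); filled points are KO samples, open points WT samples. Most filled points lie above 1 on the left (list medians 0.35, 0.73 and 0.48 on the log2 scale for KO 7, 8 and 9) and below 1 on the right (-0.47, -0.76 and -0.32).

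Of the 29 functional lists tested, the glucocorticoid-responsive genes, which the hormone receptor switches on, had the highest median fitted fold change. That rank depended on the scale. As log2(CPM + 1), the median difference from the WT mean was 1.16, 1.23 and 1.61 in KO 7, 8 and 9. For the immediate early list described below it was 1.45, 1.12 and 1.94. Of 14 glucocorticoid-responsive genes tested, 8 were higher in KO at the unadjusted threshold (2.99% of all genes were) and 0 lower (3.36%). In every KO sample 10 stood higher (10.8% of all genes did), the median was 2.35, and DESeq2 called 4. Tsc22d3, which encodes the anti-inflammatory leucine zipper protein GILZ (chromosome X, 140539528 to 140600659), stood at 106 and 87.3 CPM in WT against 546, 262 and 561 in KO (2.24 ± 0.57, DESeq2 adjusted p = 0.00162). Fkbp5, a co-chaperone of the glucocorticoid receptor (chromosome 17, 28399094 to 28517527), stood at 35.7 and 28.2 CPM in WT against 232, 210 and 133 in KO (2.59 ± 0.69, DESeq2 adjusted p = 0.0027). Per1, a circadian clock gene, stood at 24.8 and 9.49 CPM in WT against 66.2, 130 and 87.4 in KO (2.46 ± 0.62, DESeq2 adjusted p = 0.00161). Ddit4, an inhibitor of the growth kinase mTORC1, stood at 0.287 and 0.443 CPM in WT against 18.7, 17.5 and 11.7 in KO (5.44 ± 1.18, DESeq2 adjusted p = 6.08e-07). For all 4 genes every KO sample was above both WT samples, and every KO saline sample was likewise above all 3 WT saline samples. After saline Ddit4 was at 0.311 to 1.62 CPM in WT against 14.2 to 33.6 in KO, and Tsc22d3 at 103 to 416 against 508 to 627. In naive mice Tsc22d3 overlapped between genotypes, with 370 to 477 CPM in WT against 134 to 448 in KO, whereas Ddit4 did not, with 0.0712 to 1.31 against 2.44 to 6.94. In naive mice 3 of 14 members were higher in KO at the unadjusted threshold (3.52% of all genes were), with a median of -0.13. For these 4 the test of the AIBP against the saline genotype difference gave unadjusted edgeR p from 0.204 to 0.418. Over the whole list that difference was larger after AIBP for 4 of 14 genes at the unadjusted threshold (3.45% of all genes were), with a median of 0.90, and after saline alone 7 of 14 were higher in KO (3.85% of all genes), with a median of 1.43. The WT AIBP mean was below the WT saline mean for 13 of 14 (10710 of 20461 over all genes). The KO AIBP mean was above the KO saline mean for 6 and below it for 8 (10114 and 9944 of 20461 over all genes). Cdkn1a and Errfi1 of this list overlapped between genotypes after AIBP. Leaving out any sample kept 6 to 8 of the 14 at the unadjusted threshold, with a median of 2.12 to 2.37.

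Most immediate early genes, the transcription factors and feedback regulators that cells switch on first after a stimulus, also stood higher in KO. Of 22 tested, 13 were higher at the unadjusted threshold (2.99% of all genes were) and 0 lower (3.36%). In every KO sample 20 stood higher (10.8% of all genes did), and the median was 1.75. DESeq2 called Klf4, Klf6 and Ier3. Klf4 stood at 14.7 and 10.5 CPM in WT against 99.1, 59.6 and 68.7 in KO (2.59 ± 0.73, DESeq2 adjusted p = 0.00458). Klf6 stood at 231 and 232 CPM in WT against 581, 539 and 845 in KO (1.5 ± 0.46, DESeq2 adjusted p = 0.0425). Fos, an AP-1 subunit, stood at 687 and 694 CPM in WT against 2290, 1770 and 4310 in KO (2.01 ± 0.97), and Egr1 at 757 and 737 against 2130, 2510 and 4030 (1.95 ± 0.79), both without passing an adjusted test. KO 9 was the highest sample for each of these except Klf4. The count at the unadjusted threshold was 7 without KO 9, 3 without WT 7 and 4 without WT 9, while the median stayed between 1.31 and 1.88.

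Both genotypes entered into this difference when set beside saline. The KO AIBP mean was above the KO saline mean for 22 of 22 early genes, and the WT AIBP mean was below the WT saline mean for 21. Over all 20461 genes these held for 10114 and 10710. For 15 of the 22 early genes both WT AIBP samples were below all 3 WT saline samples. For 12 they were below all 6 other WT samples. Over all 20461 genes these held for 1871 and 585. After saline the genotype difference had the other sign, with a median of -1.12 and 6 of 22 genes lower in KO at the unadjusted threshold (5.13% of all genes were). The difference between the AIBP and saline genotype differences reached the unadjusted threshold, in the higher direction, for 20 of 22 early genes (3.45% of all genes did, and 2.83% in the lower direction), with a median of 2.76 on the log2 scale. With edgeR, 0 of 20461 genes (0%) passed this test of the difference after adjustment, 1285 met the unadjusted threshold, DESeq2 called 136 and limma-voom 0. The early genes also varied within the other groups: Fos ran from 142 to 1280 CPM in KO saline, 633 to 4220 in WT saline, 700 to 5500 in KO naive and 1980 to 5320 in WT naive. Both WT AIBP samples (687 and 694 CPM) were thus inside the range seen in other groups.

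**Figure D3:**
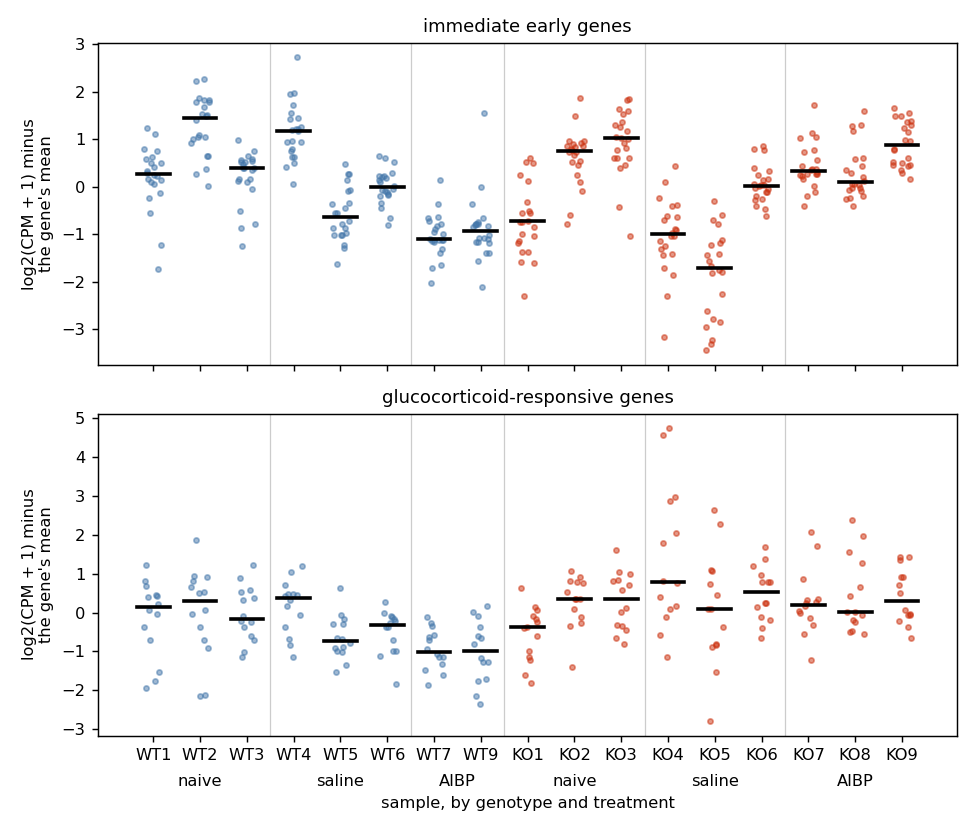
Members of the immediate early list (22 genes, top) and the glucocorticoid-responsive list (14 genes, bottom) in all 17 samples, as log2(CPM + 1) minus the gene's mean over the samples; points are genes, bars are medians, and saline and AIBP groups had cisplatin first. The WT AIBP medians (-1.11 and -0.94 top, -1.01 and -0.99 bottom) lie below those of KO AIBP (0.09 to 0.88 and 0.01 to 0.29), and samples of the other groups spread widely in the top panel.

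Promoter sequences of 4 genes of these 2 lists, most members of which stood higher in KO, are shown as examples. Each window shown holds a match, so these 4 do not tell how common a match is. Of the 6 annotated starts of Sgk1, only the 1 shown has the full element. The sequences run from 250 bases before to 50 after an annotated start (RefSeq, GRCm38.p6). Capitals mark TGACG on either strand, the core of the cyclic AMP response element, in Klf4, Nr4a1 and the second start of Per1, and in the fifth start of Sgk1 a full glucocorticoid response element, AGAACA and TGTTCT separated by 3 bases.
Klf4, chr4:55532426-55532725, minus strand: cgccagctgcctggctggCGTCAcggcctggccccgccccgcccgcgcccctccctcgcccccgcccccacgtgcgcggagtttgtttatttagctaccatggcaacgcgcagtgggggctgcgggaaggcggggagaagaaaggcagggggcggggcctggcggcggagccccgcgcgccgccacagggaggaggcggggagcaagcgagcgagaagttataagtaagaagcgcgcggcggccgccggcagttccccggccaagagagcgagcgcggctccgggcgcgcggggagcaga
Nr4a1, chr15:101266596-101266895, plus strand: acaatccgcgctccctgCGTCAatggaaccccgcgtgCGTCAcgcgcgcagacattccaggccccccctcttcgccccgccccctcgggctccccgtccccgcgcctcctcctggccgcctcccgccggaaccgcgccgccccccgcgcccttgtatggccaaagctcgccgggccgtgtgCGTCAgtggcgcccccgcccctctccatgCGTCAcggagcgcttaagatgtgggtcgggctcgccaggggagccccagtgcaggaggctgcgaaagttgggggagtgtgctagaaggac
Per1, chr11:69099902-69100201, plus strand: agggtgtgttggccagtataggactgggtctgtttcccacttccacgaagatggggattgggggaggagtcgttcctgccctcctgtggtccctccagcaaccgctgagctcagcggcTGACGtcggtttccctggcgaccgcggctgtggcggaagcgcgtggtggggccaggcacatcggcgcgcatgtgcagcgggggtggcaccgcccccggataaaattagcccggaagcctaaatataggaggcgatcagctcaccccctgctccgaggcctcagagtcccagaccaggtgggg
Sgk1, chr10:21993640-21993939, plus strand: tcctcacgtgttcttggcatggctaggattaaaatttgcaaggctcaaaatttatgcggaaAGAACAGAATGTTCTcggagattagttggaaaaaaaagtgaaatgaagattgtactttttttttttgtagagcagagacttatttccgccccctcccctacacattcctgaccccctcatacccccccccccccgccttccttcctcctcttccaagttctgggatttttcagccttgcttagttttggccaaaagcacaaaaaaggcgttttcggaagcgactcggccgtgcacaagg
Nr4a1, an orphan nuclear receptor, has 4 TGACG matches in its window, and stood at 14.7 and 16.3 CPM in WT against 26.4, 94.0 and 97.3 in KO. Sgk1, a kinase that regulates ion channels, stood at 227 and 327 CPM in WT against 497, 352 and 709 in KO. Among genes with a promoter in the table, TGACG was found for 12 of 19 early genes and 6 of 13 glucocorticoid-responsive genes, against 23% of all 27025, and its 8-base palindrome TGACGTCA, which contains it, for 3 and 2, against 2.03%. The full glucocorticoid element was found for Sgk1 alone of both lists, and for 3 genes of all (0.0111%). Its 6-base arm, TGTTCT, was found for 2 of 13 glucocorticoid-responsive genes and 1 of 19 early genes, against 21.3% of all. These are matches of letters in a short window and not binding sites.

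Some cytokines, chemokines and stress regulators were higher in KO too. Osm, a cytokine of the interleukin-6 family, stood at 34.6 and 23.8 CPM in WT against 81.4, 143 and 116 in KO (1.96 ± 0.59, DESeq2 adjusted p = 0.0258). Tnf was at 46.9 and 49.7 CPM in WT against 131, 129 and 225 in KO (1.74 ± 0.76), and Ccl3, a chemokine for myeloid cells, at 111 and 131 against 331, 303 and 504 (1.65 ± 0.68). Of 15 inflammatory cytokines 3 were higher and 1 lower at the unadjusted threshold (median 0.12). Of 16 chemokines 4 were higher and 0 lower (median 0.60). Over all genes 2.99% were higher and 3.36% lower. After saline 8 of 16 chemokines (median -1.1) and 4 of 15 cytokines (median -0.6) were lower in KO at that threshold. There 0 were higher, against 5.13% of all genes lower and 3.85% higher. Tested against saline, the genotype difference was higher after AIBP for 8 of 16 chemokines (median 1.84) and 4 of 15 cytokines (median 1.25). It was lower for 0 and 1, against 3.45% of all genes higher and 2.83% lower. Ccl24, called by DESeq2 after AIBP, rested on KO 8, with 0.332 and 0.0475 CPM in WT against 0.718, 61.3 and 3.73 in KO. The cytokine median was 1.42 without WT 7 and -0.09 without WT 9, and the chemokine count was 2 without KO 8, 2 without WT 7 and 0 without WT 9. Atf4, the factor of the integrated stress response, was at 80.3 and 53.3 CPM in WT against 201, 135 and 145 in KO (1.26 ± 0.29, DESeq2 adjusted p = 0.00458), and its target Ddit3 at 16.9 and 37.8 against 74.8, 69.9 and 75.5. Both belong to an endoplasmic reticulum stress list of 18 genes that was mixed (median -0.09). At the unadjusted threshold 2 were higher (2.99% of all genes were) and 5 lower (3.36%). After saline 10 of 18 were lower at that threshold (5.13% of all genes were) and 1 higher (median -0.57). The 5 lower after AIBP were Sdf2l1, Dnajb11, Pdia3, Pdia6 and Creld2. Sdf2l1, a chaperone partner, was at 1160 and 1240 CPM in WT against 606, 735 and 953 in KO. Without WT 9, or without KO 7, 0 were lower.

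Cholesterol genes, which AIBP and the floxed exporters concern most directly, differed little. For the counts here, 2.99% of all genes were higher in KO at the unadjusted threshold and 3.36% lower. Of 16 tested targets of the sterol-sensing LXR receptors 2 were lower and 0 higher at the unadjusted threshold (median 0.13): Mylip, which degrades the LDL receptor, at 112 and 107 CPM in WT against 86.4, 74.8 and 65.2 in KO, and Lpcat3, a phospholipid acyltransferase, at 277 and 255 against 177, 206 and 207. Of 24 cholesterol synthesis genes 1 was higher and 0 lower (median -0.05), namely Srebf2, the master regulator of that pathway, at 17.6 and 17.3 CPM in WT against 37.6, 69.2 and 40.1 in KO (1.49 ± 0.55). Its enzymes Hmgcs1, at 41.3 and 26.9 against 27.6, 13 and 26.5 CPM, and Msmo1 overlapped between genotypes. Of 20 genes of lipoprotein uptake and storage, 1 was higher and 1 lower, and both were under 1 CPM in all 5 samples.

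**Figure D4:**
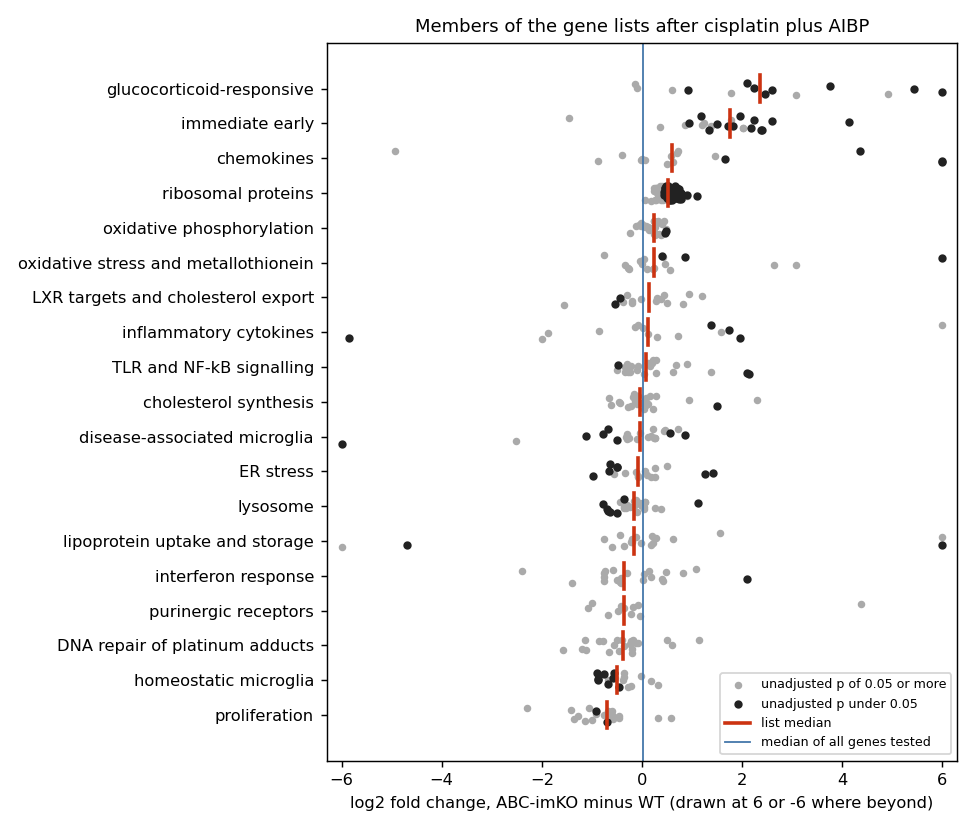
Log2 fold change (KO minus WT, after cisplatin plus AIBP) of the tested members of 19 gene lists; points are genes, black where the unadjusted edgeR p was under 0.05, red bars are list medians and the blue line the median of all genes (0.02). The medians run from 2.35 (glucocorticoid-responsive) to -0.69 (proliferation), and the ribosomal protein points cluster tightly around 0.52.

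Genes that separated the genotypes in the other conditions were read in the AIBP samples, which share no sample with them. Their p-values are not independent of that choice, since a single fit over all 17 samples set each gene's spread. Of 9 genes called after saline (edgeR adjusted p under 0.05, 0.044% of all genes), 9 had the same sign after AIBP. There 7 met the unadjusted threshold, which 2.99% of all genes met higher in KO and 3.36% lower. These 7 were Cd72, Il15ra, Olfml3, Klf13, Fam110a, Hspa1b and Lifr. Klf13, a Krüppel-like factor, was at 57.9 and 91.6 CPM in WT against 180, 153 and 184 in KO, and Lifr, the receptor for leukemia inhibitory factor, at 101 and 115 against 222, 180 and 190. G530011O06Rik, a noncoding RNA gene on chromosome X (169975043 to 169978917), was called in the naive and saline samples pooled, and stood at 100 and 139 CPM in WT AIBP and 26.1, 31.9 and 33.8 in KO AIBP. Its KO samples lay below every WT sample of the series. Gm27252 was at 0 in both WT AIBP samples and at 0.882, 0.903 and 2.23 CPM in KO, at least 49.9-fold higher against a floor of 3 counts over the WT group. It lies within Klf13 on the other strand, and the library kit named in the labels does not mark strand, so reads of the pair cannot be told apart.

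Apoe and Cx3cr1, called after saline, did not pass the unadjusted threshold in the AIBP samples. Apoe, the main lipid carrier made by glia (chromosome 7, 19696109 to 19699188), stood at 1070 and 862 CPM in WT against 1540, 1010 and 1390 in KO, overlapping, with a difference of 0.44 ± 0.34 (edgeR adjusted p = 0.789). After saline it stood at 1400, 1530 and 1900 CPM in WT against 21300, 8740 and 8110 in KO, and in naive mice at 1120 to 1300 against 3420 to 4690. The genotype difference after AIBP was thus smaller than after saline by 2.54 ± 0.44 on the log2 scale (edgeR unadjusted p = 4.49e-05, adjusted p = 0.774). Cx3cr1, the fractalkine receptor whose gene drives the Cre (chromosome 9, 119901616 to 120069879), stood at 7300 and 7900 CPM in WT against 5550, 5250 and 7080 in KO (-0.35 ± 0.20, edgeR adjusted p = 0.743). The KO samples were lower without overlap but by less than after saline, where WT was at 5530 to 7100 and KO at 1720 to 2770 (difference of the differences 1.09 ± 0.28, edgeR unadjusted p = 0.00137). In naive mice Cx3cr1 stood at 9350 to 10700 CPM in WT against 3400 to 4870 in KO (-1.26 ± 0.19). Apoe and Cx3cr1 of the samples labelled ABC-imKO after AIBP thus stood nearer to WT than in the other KO groups, and the genotype of these samples rests on the labels, since Abca1 and Abcg1 do not check it. G530011O06Rik of the same samples stood inside the range of the other KO samples (17.6 to 56.3 CPM).

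**Figure D5:**
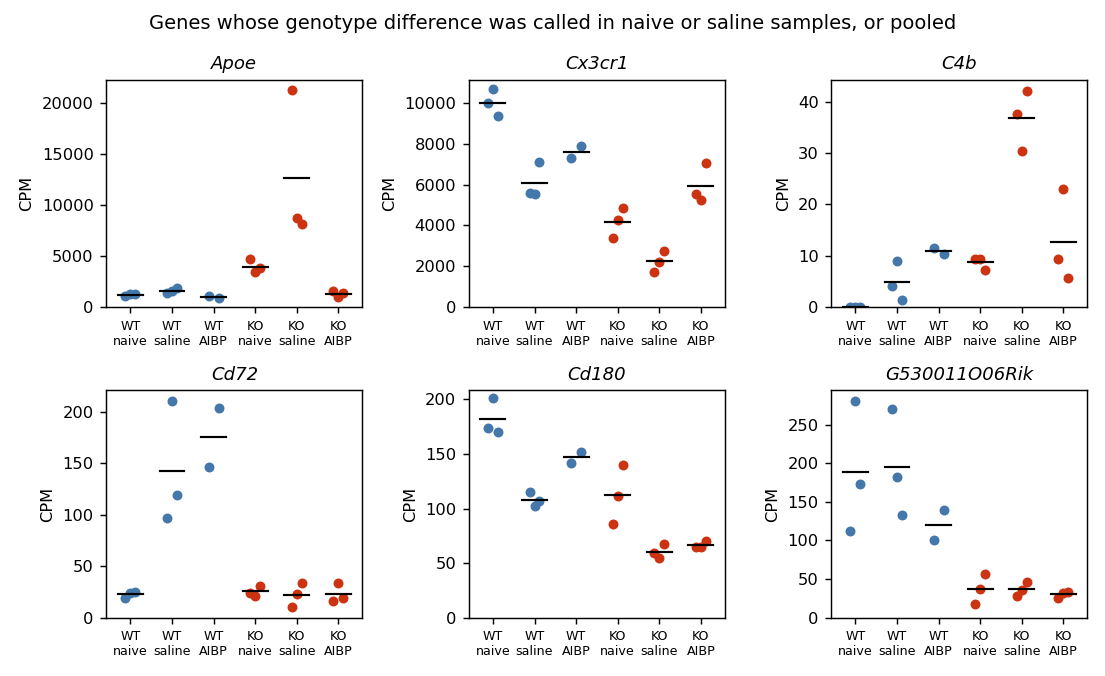
CPM of 6 genes in all 17 samples, by genotype and treatment (saline and AIBP after cisplatin); points are samples and bars group means, on linear axes from 0. Apoe and C4b of KO AIBP stand at or near the WT AIBP level, while Cd72, Cd180 and G530011O06Rik of KO AIBP lie below both WT AIBP samples.

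Against naive mice the genotype difference after AIBP differed, after adjustment, for 2 of 20461 genes (0.00977%), both in the lower direction. C4b, a complement component (chromosome 17, 34728380 to 34743882), stood at 11.6 and 10.4 CPM in WT AIBP and 9.46, 23.0 and 5.64 in KO AIBP. In naive mice it stood at 0.0159 to 0.0606 CPM in WT against 7.30 to 9.39 in KO, so the difference changed by -7.63 ± 1.02 (edgeR adjusted p = 0.0378). It was called without KO 8, but in no fit that left out any other of the 5 samples. Dlec1 was at 7.09 and 1.28 CPM in WT AIBP and at 0 in all 3 KO AIBP samples, at least 272-fold lower against a floor of 3 counts over the KO group. It was at 0 in all naive WT samples and 0.241 to 2.22 in naive KO, and was called in no fit that left out 1 of the 5 samples.

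The other functional lists showed few members past the unadjusted threshold after AIBP, which 2.99% of all genes met higher in KO and 3.36% lower. Oxidative phosphorylation genes had 2 of 29 higher and 0 lower (median 0.23), though 11 stood higher in every KO sample (10.8% of all genes did). Oxidative stress and metallothionein genes had 3 of 18 higher, among them Mt1, a metal-binding protein, at 181 and 201 CPM in WT against 334, 304 and 399 in KO. Of 24 genes of Toll-like receptor and NF-kB signalling 2 were higher and 1 lower, and Nfkbia, the inhibitor that ends NF-kB activity, was at 340 and 356 CPM in WT against 1010, 1160 and 2290 in KO. Of 22 interferon response genes 1 was higher and 0 lower (median -0.36), namely Ifi27l2a, at 14.1 and 10.6 CPM in WT against 60.5, 68.9 and 28.9 in KO. In naive mice 13 of these 22 were higher in KO (3.52% of all genes were) and 0 lower (2.44%), with a median of 1.78. Tested against naive mice, the genotype difference after AIBP was lower for 7 of 22 (3.24% of all genes) and higher for 0 (2.73%). The median of that difference was -2.13. Of 22 repair genes for platinum adducts, 11 purinergic receptors and 16 glycolysis genes, 0 met the threshold, as was the case for all but 1 of 19 p53 targets.

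Markers of other cells were read in the same samples. Summed monocyte markers (14 genes tested) were at 295 and 209 CPM in WT against 301, 863 and 347 in KO, with KO 8 high (Chil3 at 0.553 and 5.81 in WT against 13.3, 102 and 15.7 in KO), and a permutation of 3 against 2 samples is too small to test such sums. Of the 14 markers 4 stood higher in every KO sample (10.8% of all genes did) and 2 lower (11.4%). Border macrophage markers summed to 118 and 152 CPM in WT against 150, 225 and 89.7 in KO, where Pf4 reached 25 and Mrc1 14.1 in KO 8 alone. Ms4a7 of that list was at 0.486 and 17.2 CPM in WT and under 0.02 in KO. Neutrophil markers summed to 460 and 490 CPM in WT against 378, 267 and 364 in KO, nearly all of it Csf3r (460 and 487 against 377, 262 and 364), a receptor that microglia also express, while the defining S100a8 and Ltf were at or near 0 in all 5 samples. T and NK cell markers summed to at most 1.57 CPM. Endothelial markers summed to 14.5 and 17.5 CPM in WT against 10.9, 3.5 and 8.52 in KO, and oligodendrocyte markers to 495 and 518 against 381, 456 and 467, both lower in every KO sample. Astrocyte sums (212 and 256 CPM in WT, 162 to 228 in KO) and Schwann cell sums (446 and 515 in WT, 296 to 528 in KO) overlapped. The median of the early genes was 1.88 and that of the glucocorticoid-responsive genes 2.12 without KO 8, and that of the homeostatic genes was -0.32. The part of other cells, or of the greater depth of the KO samples, in the differences above was not tested.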

How the data were processed

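RNA of sorted lumbar microglia was measured by RNA-seq in 17 samples, each sequenced as 3 technical replicates on 2 lanes. Per the submitters' processing notes, the authors named the build GRCm38 and the tools STAR 2.6.0a, DESeq2, bcl2fastq, MultiQC 1.7 and FastQC 0.11.17. Counting tool and strand setting are not given in the sources used here. Deposited were the authors' raw counts for 53715 genes and 102 runs. The 6 runs of a sample were summed. Genes were named from GENCODE M21 (53620 named). A deposited normalized table was not used here.

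Groups were compared with edgeR 4.0.16 in R 4.3.3: TMM scaling (factors 0.885 to 1.11), filterByExpr (20461 genes), a quasi-likelihood F test on group means of all 17 samples, with Benjamini-Hochberg adjustment at 0.05 (residual df 11; the common dispersion was equal to a biological CV of 0.922). The scripts were tested on simulated data with less spread than these samples and with changes in abundant genes only. That test checked the code and does not measure power or false calls in these samples. DESeq2 1.42.0, limma-voom (limma 3.58.1), other scalings and filters, left-out samples and technical replicates, and a replicate block were alternatives. DESeq2 gave no adjusted p for 1659 genes. Same-numbered samples of the 2 genotypes did not deviate together (r = -0.044 and -0.005 for numbers 7 and 9, -0.198 to 0.199 for the others), so the numbers were not used as pairs.

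The comparison and the gene lists were chosen with earlier results of these data known, while samples were put in groups by their labels alone. Named genes were Abca1, Abcg1 and Cx3cr1, then the 20 with the smallest p (fewer than 20 being called). Those 20 needed a mean of 10 CPM or more in the higher group. Gene models, clones, cDNA numbers and pseudogenes were passed over, G530011O06Rik (edgeR unadjusted p = 0.000494) among them. Then came up to 4 members of each list by p and those of the 2 differences of differences. Other genes named in the text were called in other conditions, or are list members or DESeq2 calls chosen after their values were seen.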

Additional observations from a re-analysis of the deposited data

Results flagged for a closer look

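For 2 genes the genotype difference after AIBP differed from that in naive mice by a test of the difference itself. For C4b the log2 difference was lower by 7.63 after AIBP (-7.63 ± 1.02, edgeR adjusted p = 0.0378), with KO at 9.46, 23.0 and 5.64 CPM and WT at 11.6 and 10.4. For Dlec1 the fitted value was -20.01, which depends on how counts of 0 are handled and is no measure of size, since the gene was at 0 in all KO AIBP and all WT naive samples.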

How the results depend on the processing

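How many genes passed depended on the tool. For KO against WT after AIBP edgeR called 0 with either other scaling, with the 5 AIBP samples alone and with each sample or technical replicate left out (0 to 0), while 1 was called (Cd72) without a filter and 1 with a stricter filter, limma-voom called 12, DESeq2 195, and libraries as units with a technical replicate block 135, a fit that counts technical libraries as samples. For the difference from saline the counts were 0, 1 without a filter, 136 with DESeq2 and 103 with libraries as units, and for the difference from naive mice 2, 3 without a filter, 1 with the stricter filter, 1 with limma-voom, 119 with DESeq2, 57 with libraries as units, 0 without any technical replicate and 0 to 1 with samples left out. With the sample number as replicate block 0, 0 and 0 genes were called; the numbers share no stated origin and were not treated as pairs. The cause of these changes was not tested.

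Values that changed sign, among the genes and lists recomputed under every setting, are given here on the log2 scale. Abca1 was -0.01 without technical replicate 1 (up to 0.54 without technical replicate 2); Abcg1 was 0.25 without WT 9, 0.06 without KO 8 and 0.10 with the replicate block. C4b was -0.04 with limma-voom, -0.54 without KO 8, -0.59 with the block and -0.37 without technical replicate 1, with 0.56 without KO 9 as the highest. Among list medians, LXR targets were at -0.01 without KO 7 (up to 0.17 without KO 9), -0.03 without technical replicate 1 and -0.14 without technical replicate 3; cholesterol synthesis at 0.01 with library size alone, 0.06 without WT 7 (down to -0.17 without WT 9), 0.01 without KO 7 and 0.02 with libraries as units; interferon response at 0.33 without WT 7 (down to -0.57 without KO 7); heat shock at -0.03 with limma-voom, -0.02 without KO 8, -0.07 without KO 9 (up to 0.23 without KO 7) and -0.07 with the block; NF-kB signalling at -0.01 without KO 7 (up to 0.15 without KO 9); and inflammatory cytokines at -0.09 without WT 9 and 1.42 without WT 7. Of the other list medians in the report, recomputed only with samples left out, disease-associated microglia were at 0.08 without KO 7 and ER stress at 0.07 without WT 9.

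With 2 WT samples, each leave-out of WT leaves a lone sample that is assumed to vary like the other groups. Among genes under 1 CPM the median SE was 2.43, so differences there were not measurable unless very large. PCR copies were not told apart from separate molecules.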
